A study of Mus musculus with 15 samples.

Results

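The 38 genes described here are the Hox genes of the mouse Hoxa, Hoxb, Hoxc and Hoxd clusters, taken by name from the gene annotation and not by any measured value. They comprise 10 Hoxa, 10 Hoxb, 9 Hoxc and 9 Hoxd genes out of 22254 protein-coding genes, and their clusters together span 521 kb. The study examined how the eye transcription factor Pax6 relates to methylation of histone H3 lysine 4 (H3K4) in lens chromatin. Chromatin immunoprecipitation with sequencing (ChIP-seq) was carried out in αTN4, a mouse lens epithelial cell line transformed by SV40 T antigen, and the lists of enriched regions of 9 libraries are used here. Control αTN4 cells were transduced with a lentivirus carrying a control shRNA, and Pax6 knockdown (Pax6 KD) cells with a lentivirus carrying a Pax6 shRNA. Both were selected with puromycin and grown as stable lines, so that each condition is a single engineered line of an established tumour-virus-transformed cell. Control cells were profiled for Pax6, RNA polymerase II (Pol2), H3K4me1, H3K4me2 and H3K4me3, Pax6 KD cells for the 3 H3K4 marks, and lenses of 1-day-old CD-1 mice for H3K4me2. There was 1 library per mark and condition, so the comparisons below set library against library and carry no test.

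Hox genes encode homeodomain transcription factors that give cells their position along the head-to-tail axis. Within a cluster the genes lie in the order in which they are used along that axis: paralogue groups 1 to 3 act mainly in the hindbrain and neck, groups 4 to 8 in the neck and trunk, and groups 9 to 13 in the lower trunk, limbs and tail. The clusters are classical targets of the opposing Trithorax (H3K4 methyltransferase) and Polycomb systems, and the lens forms in the head from ectoderm that lies ahead of the Hox-expressing territory. H3K4me3 usually marks gene starts, H3K4me1 usually marks enhancers, and H3K4me2 is found at both.

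A gene was counted as having a region when a region of the list touched its body or the 5 kb on either side. The windows of neighbouring Hox genes overlap, so that a wide region counts for several genes, and the annotated models of Hoxa3 (49981 bp), Hoxd3 (36346 bp) and Hoxb3 (23360 bp) run over neighbouring genes. Hox genes of a cluster are therefore not independent, and every interval below covers counting error only. Read depth is not given for the Pax6, Pol2, H3K4me2 and H3K4me3 lists, and the level of Pax6 in the knockdown cells was not analysed here. The lists of control and Pax6 KD cells were of like size for H3K4me2 (the KD list held 99.4% as many peaks) and H3K4me3 (96.2%), whereas the KD H3K4me1 list held 48.5% as many islands. The antibody fields of the Pax6 and Pol2 libraries name each other's antibody, and both were assigned by title. Regions of the Pax6 list lay at 3 of 16 lens genes (Prox1, Pax6 and Crybb1), against 1.34% of all genes. Those of the Pol2 list lay at 10 of the 16 (62.5%), near the 53.5% of all genes. H3K4me2 peaks lay at 13 of the 16 lens genes in control αTN4 cells (all genes 69.8%), with none at Cryba1, Crybb2 or Foxe3. In newborn lens they lay at all 16 (all genes 72.9%).

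In control αTN4 cells the Hox clusters carried wide H3K4me2 and H3K4me1 domains over most genes, narrow and mostly weak H3K4me3 peaks, and no Pax6 peak. H3K4me2 peaks lay at 34 of 38 Hox genes, against 69.8% of all protein-coding genes. H3K4me1 islands lay at 31 (81.6%, Wilson 95% interval 66.6 to 90.8; all genes 52.7%), H3K4me3 peaks at 28 (all genes 53.0%) and Pol2 peaks at 28 (all genes 53.5%). In this wide window the 4 shares stood above those of all genes, and the extent of the marks differed more. H3K4me2 peaks covered 30.7% of the 4 clusters and 2.82% of the genome, which is a 10.9-fold excess. The excess over the genome was 11.4-fold for H3K4me3, 10.4-fold for Pol2 and 5.10-fold for H3K4me1. Among gene windows that held a region the differences were smaller. The median coverage of these windows was 41.3% at Hox genes and 9.07% over all genes for H3K4me2, and 9.92% and 3.96% for H3K4me3. It was 8.55% and 3.13% for Pol2, and 34.4% and 16.6% for H3K4me1.

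**Figure D1:**
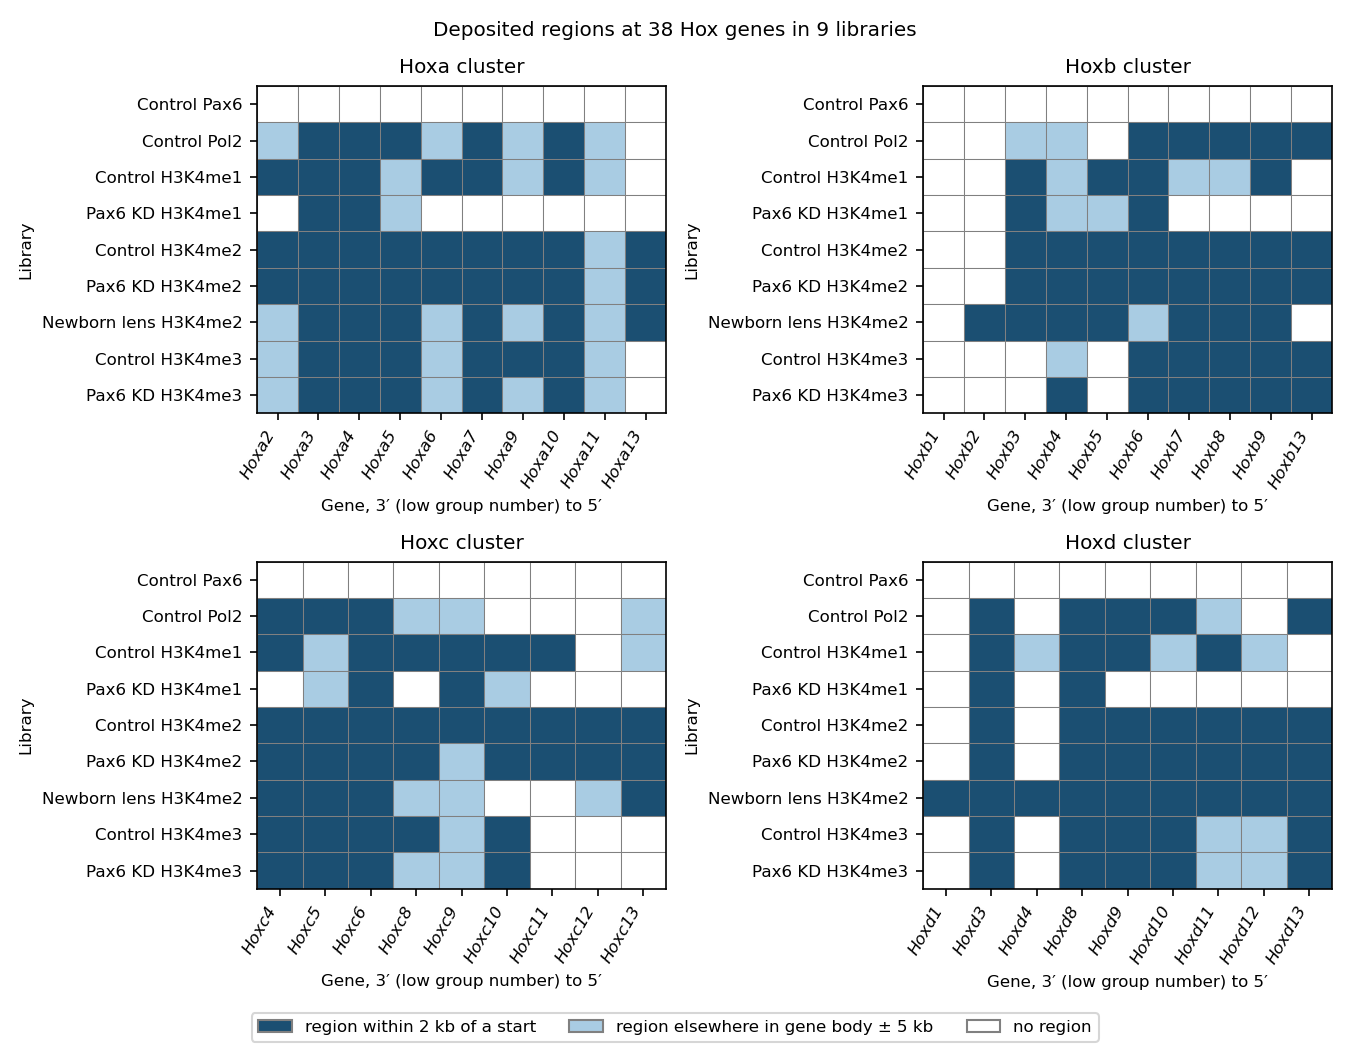
Hox genes with a region in their body or within 5 kb in each library, arranged by cluster and paralogue group. Hoxb1 has no region in any of the 9 lists, no gene has a Pax6 peak, and the Pax6 KD H3K4me1 list reaches 13 genes where the control list reaches 31.

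Close to the gene starts the marks divided. Within 2 kb of an annotated start, H3K4me2 lay at 33 Hox genes in control cells (all genes 58.3%), 32 in KD cells (57.2%) and 26 in lens (66.8%). H3K4me3 lay there at 21 Hox genes in control (all genes 49.1%) and 20 in KD cells (47.8%), Pol2 at 18 (48.0%) and H3K4me1 at 20 (36.1%). Pax6 lay at 0 (0.252%). In control cells H3K4me2 thus reached more Hox starts than any other mark, as it did over all genes. The Hox shares of H3K4me2 (86.8%, Wilson interval 72.7 to 94.2) and H3K4me1 (52.6%, 37.3 to 67.5) stood above those of all genes. The Pol2 share (47.4%, 32.5 to 62.7) was near that of all genes. The H3K4me3 share (55.3%, 39.7 to 69.9) had an interval that reaches that of all genes. The excess of the wide window was thus not seen at the starts for Pol2, and was unresolved for H3K4me3.

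The Hox peaks differed from the rest of their lists in opposite ways for the 2 promoter-associated marks. The 77 control H3K4me2 peaks in the clusters had a median width of 1470 bp against 865 bp over the list, and 11 of them (14.3%, Wilson 95% interval 8.18 to 23.8) were wider than 4 kb, against 1.65% of the list. Their median fold enrichment over input stood at percentile 68.9 of the list. The 41 control H3K4me3 peaks had a median width of 501 bp against 867 bp, and their median enrichment stood at percentile 20.8. The H3K4me3 signal of the Hox clusters was thus spread over many low peaks, with a few tall ones.

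The tall H3K4me3 peaks lay at genes of groups 3 to 13. The highest in each cluster were at Hoxa5, Hoxb6, Hoxc9 and Hoxd9. At Hoxd9, which acts in the lower spine and limb, a peak over the annotated start (chr2:74535543-74537417, mm9, coding exon) reached 30.6-fold over input, percentile 83.6 of the list. At Hoxb6, a thoracic gene, the widest H3K4me3 peak of the clusters (3452 bp, chr11:96153883-96157334) reached 27.9-fold. It lay near the outer annotated start of the Hoxb6 model, upstream of the Hoxb6 coding start at chr11:96160491. At Hoxc9, which specifies thoracic motor neurons, the peak lay in a coding exon (chr15:102811406-102813158) at 22.0-fold. At Hoxa5, which acts in the lung and the cervical spine, it lay inside the gene (chr6:52153184-52154410) at 19.6-fold. Further tall peaks stood at Hoxd13, the gene of the digits (26.4-fold), and at Hoxb9, a thoracic gene (24.5-fold). Another (27.2-fold, chr2:74549626-74550980) stood at the annotated start of the long Hoxd3 model, far from the Hoxd3 coding start at chr2:74582069. With the window set to the coding span and 5 kb each side, Hoxd3 had no H3K4me3 peak and no Pol2 peak.

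Several genes at the cluster ends had few marks or none. No H3K4me3 peak lay at 10 Hox genes: Hoxb1, Hoxb2, Hoxd1, Hoxb3, Hoxd4 and Hoxb5 toward the anterior side, and Hoxc11, Hoxc12, Hoxc13 and Hoxa13 toward the posterior side. The windows of Hoxb1 and Hoxb2 (hindbrain segment identity) and of Hoxd1 (a gene of pain-sensing neurons) held no region of any αTN4 list. Hoxa13, which with Hoxd13 patterns the digits and the genital tubercle, had H3K4me2 only, at 5.92% of its window and up to 3.44-fold near its start. The posterior end of the Hoxd cluster differed from that of Hoxa, since Hoxd13 had H3K4me2 over 55.3% of its window and H3K4me3 over 20.7%.

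**Figure D2:**
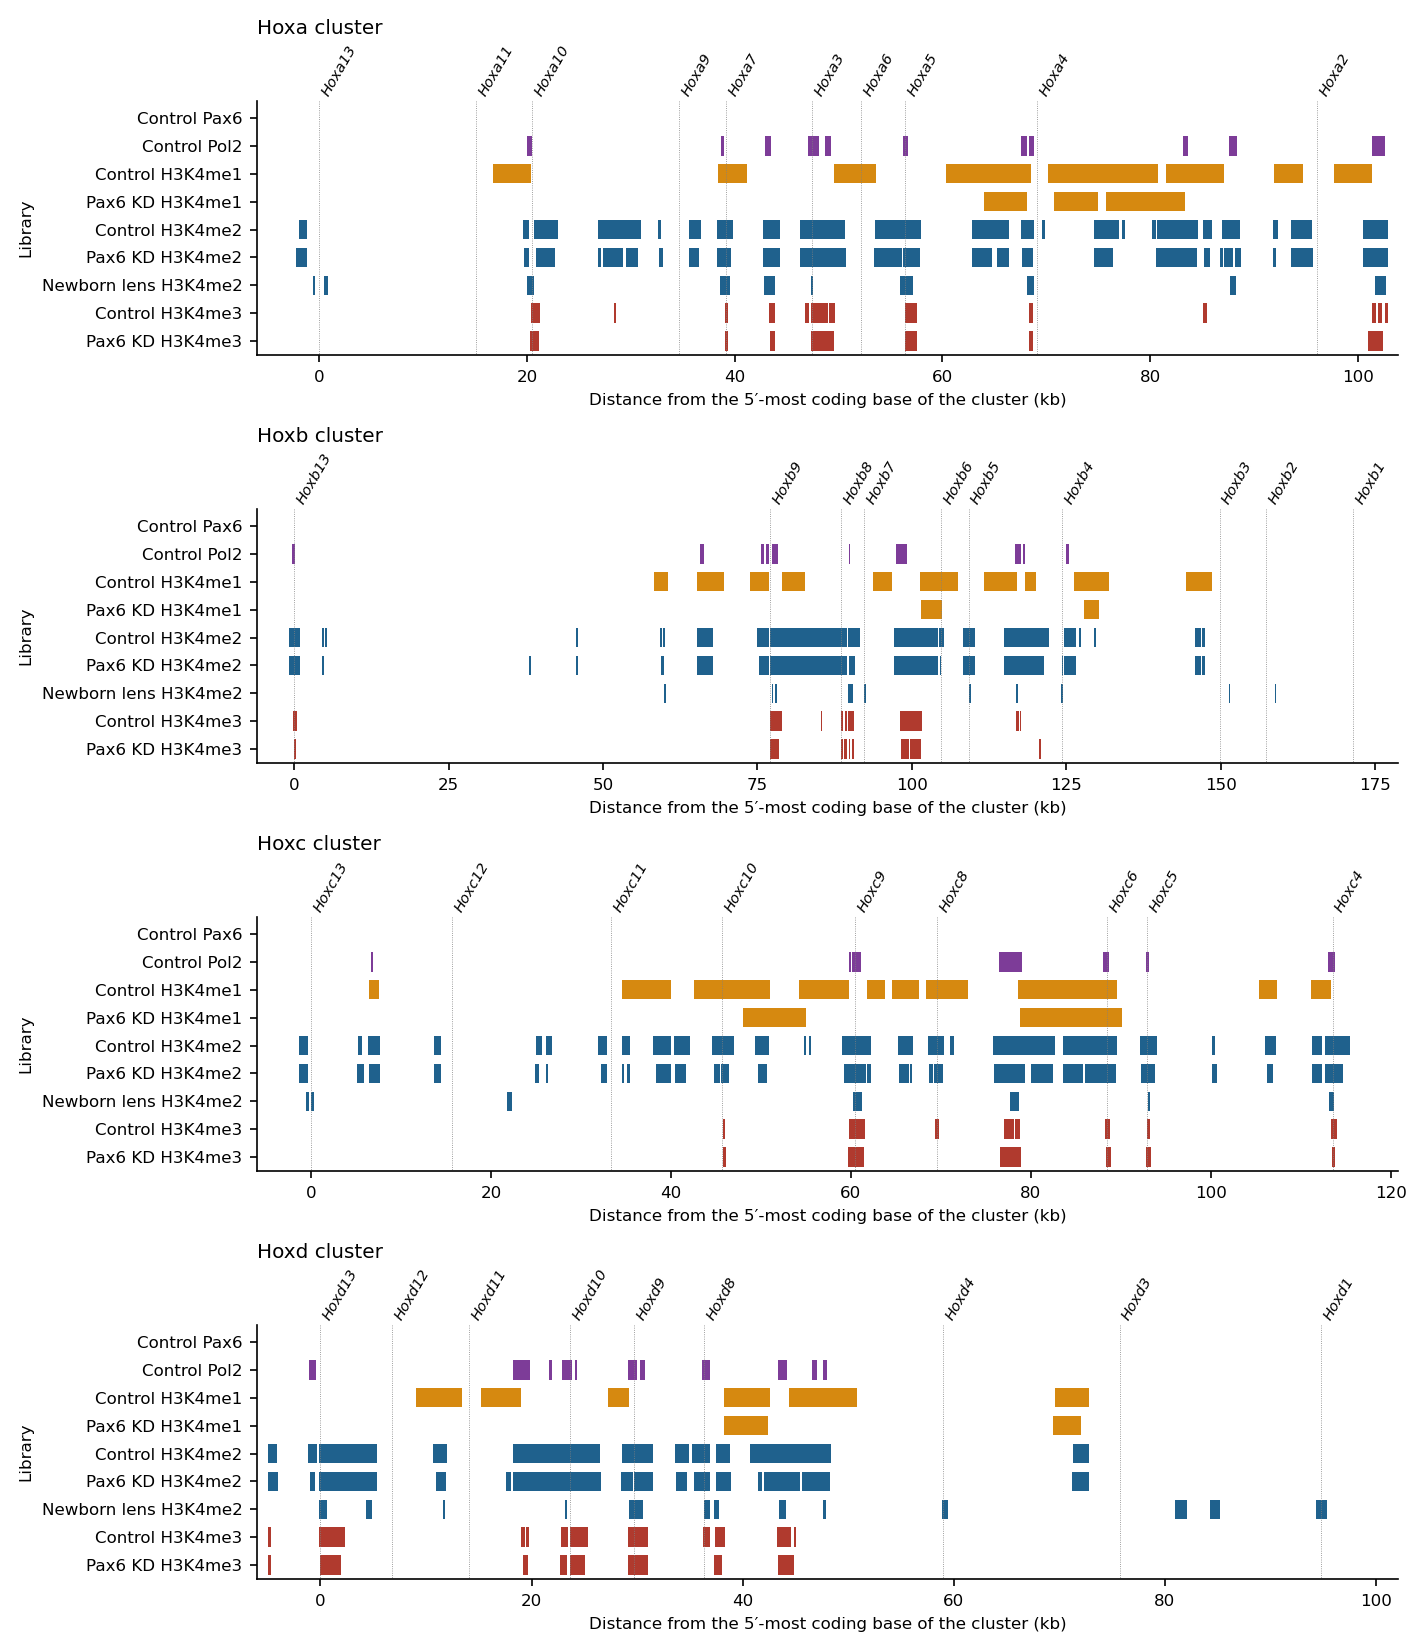
Regions of each list along the 4 Hox clusters, with distance in kb from the 5′-most coding base of the cluster and dotted lines at the first coding base of each gene. Control and Pax6 KD H3K4me2 cover similar wide domains, lens H3K4me2 peaks are narrow, and KD H3K4me1 islands are few.

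The widest H3K4me2 domains lay over Hoxb8 and Hoxb9, Hoxd10 and the annotated start of the long Hoxd3 model, which is far from the Hoxd3 coding span. A domain of 12548 bp (chr11:96132764-96145311) ran from Hoxb9 to Hoxb8 at up to 23.9-fold and was the widest of the clusters. The next was 8270 bp over Hoxd10 (chr2:74524604-74532873, 24.2-fold), a gene of lumbar motor neurons, and the third was 7676 bp at the start of the Hoxd3 model (chr2:74547018-74554693, 22.6-fold). A peak over the Hoxc9 exons (chr15:102810615-102813807) had the highest enrichment, 25.7-fold. H3K4me2 covered 80.0% of the Hoxd10 window, 79.4% of the Hoxb9 window and 66.6% of the Hoxb8 window. The median window was covered to 11.3% in groups 1 to 3 (7 genes), 49.2% in groups 4 to 8 (15 genes) and 38.3% in groups 9 to 13 (16 genes), against 5.11% over all protein-coding genes.

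H3K4me1 islands followed the H3K4me2 domains with some exceptions. Both marks were present at 30 genes, Hoxa13, Hoxb13, Hoxc12 and Hoxd13 had H3K4me2 without H3K4me1, and Hoxd4 had H3K4me1 without H3K4me2. Among all genes 27.1% of those with H3K4me2 lacked H3K4me1, and 1.90% had H3K4me1 without H3K4me2. At the starts, within 2 kb, 20 Hox genes had both, 13 had H3K4me2 alone (all genes with H3K4me2, 42.7%) and 0 had H3K4me1 alone (2.70%). The 4 genes with H3K4me2 alone all belong to groups 12 and 13. The widest island was 11000 bp within the Hoxc6 model (4.31-fold), and islands covered 86.8% of the window of Hoxa4. The highest enrichment was 6.07-fold in an island of 2000 bp just 5′ of Hoxd9 (chr2:74533601-74535600).

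Pol2 peaks lay in the H3K4 domains. All 39 Pol2 peaks in the clusters overlapped a control H3K4me2 peak (list 95.1%), and 25 of 39 (64.1%) overlapped an H3K4me3 peak (list 68.6%). The tallest were at Hoxd10 (21.8-fold), Hoxc6 (18.3-fold), the outer annotated start of the Hoxa3 model, close to Hoxa6 (17.9-fold), and Hoxb6 (17.1-fold). After these came a peak over an inner annotated start of Hoxa3, within an intron of the long model (14.9-fold, chr6:52122372-52123194), and Hoxd9 (13.1-fold). The Hoxb6 peak lay away from the coding part, and with the window set to the coding span and 5 kb each side Hoxb6 had no Pol2 peak. The 18.3-fold Hoxc6 peak also lay in the Hoxc8 window, upstream of the Hoxc6 coding start at chr15:102840037. By gene, 26 had both Pol2 and H3K4me3, Hoxc10 and Hoxd12 had H3K4me3 alone, and Hoxb3 and Hoxc13, a gene of hair and nail, had Pol2 alone. Among all genes 4.82% of those with H3K4me3 lacked Pol2, and 2.99% had Pol2 without H3K4me3. At the starts 18 Hox genes had both, Hoxa9, Hoxc8 and Hoxc10 had H3K4me3 without Pol2 (all genes with H3K4me3, 5.57%), and 0 had Pol2 alone (1.63%). The median Pol2 peak stood at percentile 40.1 of the Pol2 list.

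Pax6 peaks were not found in the clusters. None of the 504 Pax6 peaks lay at any of the 38 genes, against 1.34% of all genes, and 0 of 38 allows a share of up to 9.18% (Wilson 95% interval). The list is short, so that a count of 0 among 38 genes differs little from the share in other genes. The nearest Pax6 peak was 1494 kb from the Hoxa cluster, 2062 kb from Hoxd, 2530 kb from Hoxc and 6165 kb from Hoxb.

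Promoter sequences show which short stretches of CpG-rich DNA at Hox starts lay under a region and which did not. RefSeq promoters (250 bases before to 50 after the start, GRCm38.p6) were at hand for 22 of the 38 genes, 24 promoters in all, and each of them matched mm9 at exactly 1 place. The 5 below were chosen because they range from the most marked promoter to promoters that overlapped no region, and capitals mark CpG dinucleotides. Hoxd9 (chr2:74535570-74535869, plus strand, 20 CpG) lay under H3K4me3 at 30.6-fold, control H3K4me2 at 19.6-fold and Pol2 at 13.1-fold, and under lens H3K4me2 at 16.1-fold. Hoxa5 (chr6:52154537-52154836, minus strand, 29 CpG) lay under control H3K4me2 at 17.7-fold, Pol2 at 11.01-fold and lens H3K4me2 at 10.8-fold, with the H3K4me3 peak further inside the gene. Hoxd1 (chr2:74600787-74601086, plus strand, 29 CpG) lay under a lens H3K4me2 peak at 20.01-fold and under no αTN4 region. Hoxa13 (chr6:52210825-52211124, minus strand, 45 CpG) and Hoxb1 (chr11:96226822-96227121, plus strand, 10 CpG) overlapped no region of any list. H3K4me2 did lie close to the Hoxa13 promoter, with lens peaks on either side (chr6:52209965-52210279 and chr6:52211185-52211385) and a control peak at chr6:52212000-52212780.
Hoxd9: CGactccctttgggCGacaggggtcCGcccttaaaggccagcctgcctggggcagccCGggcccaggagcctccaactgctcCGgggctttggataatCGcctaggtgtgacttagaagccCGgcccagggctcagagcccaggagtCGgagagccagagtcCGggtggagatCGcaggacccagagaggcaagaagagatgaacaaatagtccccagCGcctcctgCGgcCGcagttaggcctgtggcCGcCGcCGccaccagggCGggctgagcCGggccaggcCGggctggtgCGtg
Hoxa5: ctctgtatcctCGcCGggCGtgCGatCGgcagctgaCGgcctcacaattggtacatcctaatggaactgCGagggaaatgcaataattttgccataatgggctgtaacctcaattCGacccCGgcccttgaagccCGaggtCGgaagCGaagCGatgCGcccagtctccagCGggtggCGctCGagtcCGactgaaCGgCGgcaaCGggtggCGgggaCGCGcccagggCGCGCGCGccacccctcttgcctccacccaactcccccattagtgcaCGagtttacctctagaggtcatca
Hoxd1: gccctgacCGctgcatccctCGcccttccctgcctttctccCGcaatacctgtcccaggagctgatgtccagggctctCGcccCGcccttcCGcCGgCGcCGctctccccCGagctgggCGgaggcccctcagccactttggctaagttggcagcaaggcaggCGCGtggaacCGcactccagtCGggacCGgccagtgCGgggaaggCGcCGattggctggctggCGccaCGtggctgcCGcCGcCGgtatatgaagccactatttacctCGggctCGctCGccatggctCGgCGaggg
Hoxa13: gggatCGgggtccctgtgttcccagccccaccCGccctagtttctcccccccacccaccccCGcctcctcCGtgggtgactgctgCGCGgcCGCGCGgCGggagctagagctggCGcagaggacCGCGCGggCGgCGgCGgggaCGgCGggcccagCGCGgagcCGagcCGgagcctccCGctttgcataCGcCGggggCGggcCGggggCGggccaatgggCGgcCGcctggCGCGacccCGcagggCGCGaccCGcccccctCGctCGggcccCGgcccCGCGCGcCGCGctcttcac
Hoxb1: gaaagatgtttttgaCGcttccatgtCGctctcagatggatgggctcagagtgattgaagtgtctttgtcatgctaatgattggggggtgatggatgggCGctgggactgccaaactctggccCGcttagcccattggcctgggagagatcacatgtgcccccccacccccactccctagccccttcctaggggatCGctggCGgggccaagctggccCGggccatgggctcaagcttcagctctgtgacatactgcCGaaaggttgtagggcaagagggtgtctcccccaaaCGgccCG

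The promoter of Hoxa13 had the most CpG dinucleotides of the 24, and its 300 bases overlapped no region. Control, KD and lens H3K4me2 peaks nevertheless lay within 2 kb of its start. CpG number and overlap of the promoter itself with a region thus did not go together at every gene. Over the 24 promoters the median was 14.5 CpG (range 4 to 45), against 7 over 32851 RefSeq promoters. The 6 promoters under an H3K4me3 peak had a median of 20 CpG and the others 13. The letters TGATNNAT, a form of the site bound by Hox and Pbx proteins together, were searched on both strands and occurred in 4 of 24 promoters (Hoxa2, Hoxb1, Hoxb8 and Hoxd11; 16.7%, all promoters 8.85%).

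Newborn lens differed from αTN4 cells mainly in the extent of H3K4me2. Lens peaks lay at 34 of 38 Hox genes (all genes 72.9%), the same number as in control αTN4 cells, but they covered 4.42% of the clusters where control αTN4 peaks covered 30.7%. Over the genome the excess was 1.98-fold in lens and 10.9-fold in αTN4 cells. Set against other genes, lens showed no excess: the median gene window was covered to 4.48% at Hox genes and 4.87% over all protein-coding genes. In control αTN4 cells these medians were 40.1% and 5.11%. Lens peaks had a median width of 519 bp, and none of the 40 was wider than 4 kb, against 1.68% of the lens list. In the Hoxb cluster, 1.85% was covered in lens and 23.7% in αTN4 cells. In the Hoxd cluster, the values were 8.18% and 31.4%.

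**Figure D3:**
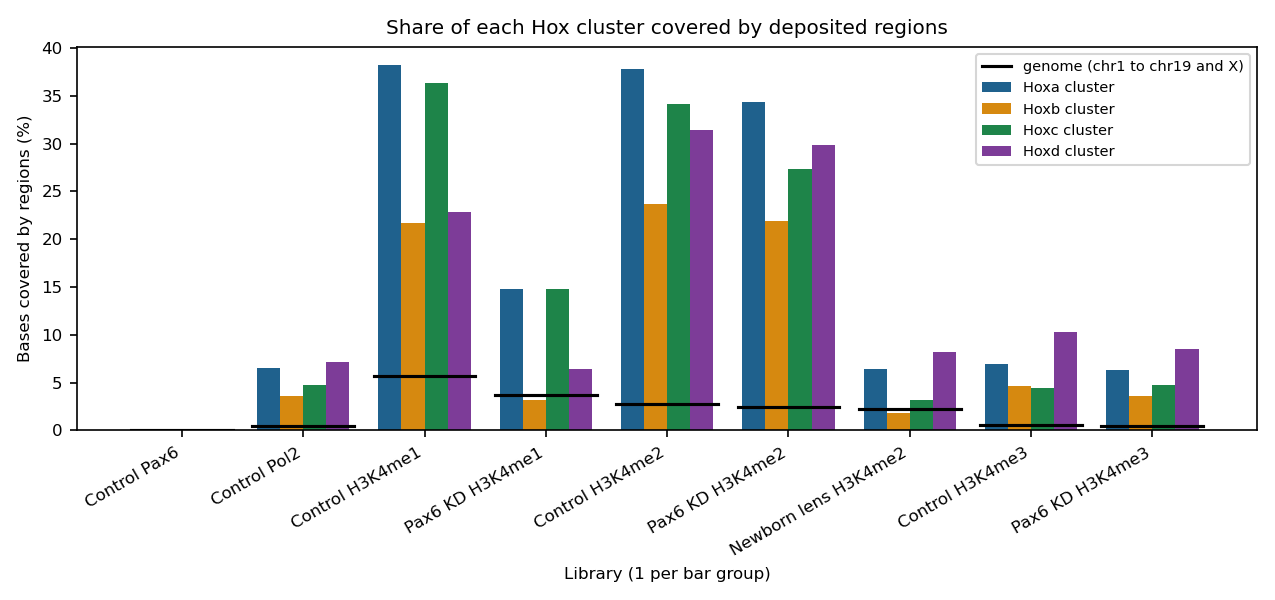
Percent of each Hox cluster covered by the regions of each list, with the coverage of the genome for comparison. Control H3K4me2 covers 23.7% to 37.8% of each cluster, lens H3K4me2 1.85% to 8.18%, and KD H3K4me1 3.17% to 14.8% where control H3K4me1 covers 21.7% to 38.2%.

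The difference held gene by gene. H3K4me2 covered more of the window in αTN4 cells at 34 of 38 Hox genes (89.5%), against 44.8% of all protein-coding genes. It covered more in lens at 3 genes (Hoxb2, Hoxd1 and Hoxd4), and Hoxb1 had no peak in either. More than 20% of the window was covered at 29 Hox genes in αTN4 cells and at 0 in lens, while among all genes the shares were 13.3% and 11.5%. At Hoxb9 the coverage was 79.4% in αTN4 cells and 4.15% in lens, and at Hoxd10 it was 80.0% and 11.2%. All 16 genes of groups 9 to 13 were covered more in αTN4 cells, with medians of 38.3% and 4.18%. A set of 41 homeobox genes outside the clusters went the other way, with a median of 2.37% in αTN4 cells and 17.4% in lens and more coverage in lens at 35 of 41. Cell line and tissue differ here in cell makeup, growth and library as well, and these cannot be told apart.

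**Figure D4:**
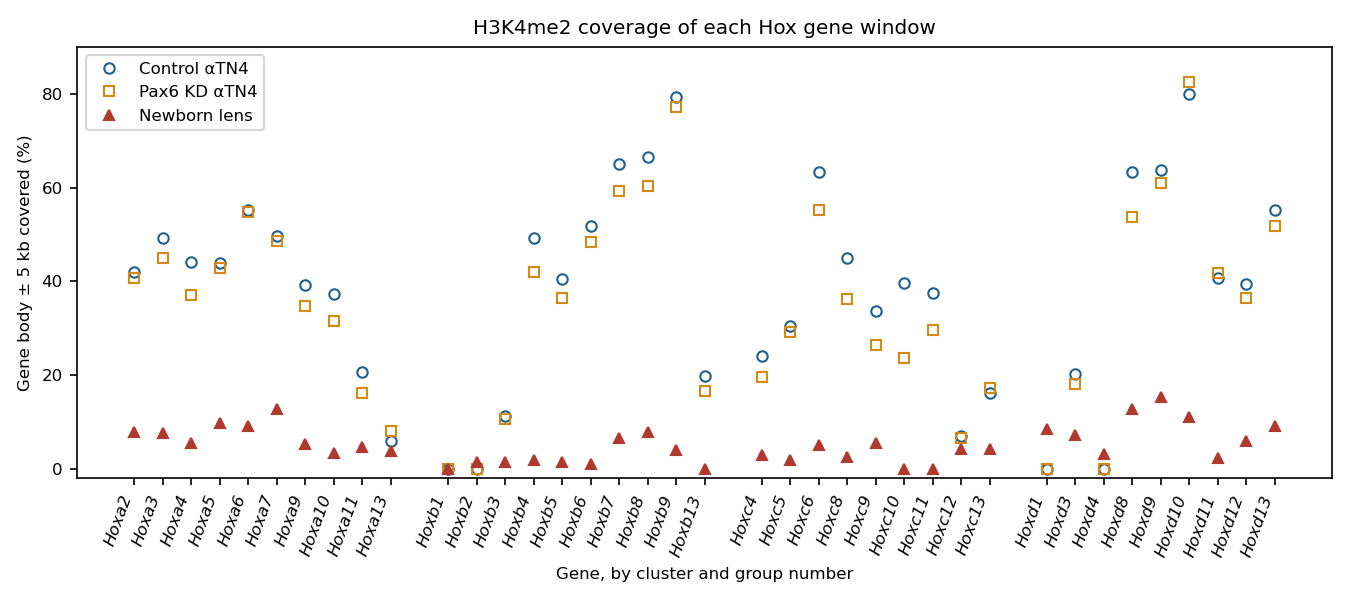
Percent of each Hox gene window covered by H3K4me2 in control αTN4 cells and in newborn lens, by cluster and gene. The αTN4 value exceeds the lens value at 34 of 38 genes, and the lens exceeds it at Hoxb2, Hoxd1 and Hoxd4.

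Both the peaks that were shared and those that were not had named places. H3K4me2 was present in αTN4 cells without a lens peak at Hoxb13, Hoxc10 and Hoxc11 (of all genes with an αTN4 peak, 6.74% lacked a lens peak), and in lens without an αTN4 peak at Hoxb2, Hoxd1 and Hoxd4 (7.87% of all genes). Hoxb13 acts in the prostate and the tail, and Hoxc10 in lumbar motor neurons. At Hoxc10 the αTN4 peaks reached 18.6-fold and at Hoxb13 19.1-fold. The lens peak over the start of Hoxd1 (chr2:74600646-74601694, 1049 bp) reached 20.01-fold, percentile 79.3 of the lens list. The lens peaks at Hoxd4 (7.64-fold) and Hoxb2 (3.95-fold) lay in coding exons. Within 2 kb of a start the gap was wider, since 10 genes had an αTN4 peak without a lens peak (Hoxa2, Hoxa6, Hoxa9, Hoxb6, Hoxb13, Hoxc8, Hoxc9, Hoxc10, Hoxc11 and Hoxc12), against 5.37% of all genes with an αTN4 peak there. Hoxb2, Hoxd1 and Hoxd4 had a lens peak alone there too (11.7% of all genes).

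Lens peaks mostly fell inside αTN4 domains. Of the 40 lens peaks 28 overlapped an αTN4 peak (70%, Wilson 95% interval 54.6 to 81.9; list 45.4%). Of the 77 αTN4 peaks 26 overlapped a lens peak (33.8%, 24.2 to 44.9; list 41.3%), and those had a median αTN4 enrichment of 17.5-fold against 7.82-fold for the others. The tallest lens peaks over or near a start were at Hoxa7 (24.8-fold, chr6:52171215-52172155), Hoxd1 (20.01-fold), Hoxd12 and Hoxd13 (16.9-fold, between the genes), Hoxa4 (16.5-fold) and Hoxd9 (16.1-fold). In the Hoxc cluster the tallest was in an intron of the Hoxc6 model (15.01-fold, chr15:102829339-102830296), upstream of the Hoxc6 coding start at chr15:102840037. In the Hoxb cluster the tallest was 9.22-fold over the start of Hoxb7, where the models of Hoxb7 and Hoxb8 overlap (chr11:96145491-96146281). The 12 lens peaks outside αTN4 domains were 2 in Hoxa, 4 in Hoxb, 2 in Hoxc and 4 in Hoxd.

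Pax6 KD cells had fewer H3K4me1 islands in the Hox clusters than control cells, in a list that was shorter throughout. Islands lay at 13 Hox genes in KD cells (all genes 31.0%) and at 31 in control cells. KD islands were absent at 18 of the 31 genes, and the 13 others (41.9%, Wilson 95% interval 26.4 to 59.2) had an island in both. Among all genes with a control island, 42.5% had no KD island, so the Hox share without one stood above the background with an interval that reaches it. Hox genes with a KD island only numbered 0, against 0.714% of all genes. In the 2 kb around the starts 8 Hox genes had an island in both, 12 in control cells alone (all genes with a control island, 56.5%) and 0 in KD cells alone (1.10%).

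The 9 islands of KD cells lay mostly at genes of the anterior and middle groups, and several neighbouring windows shared an island. In groups 1 to 3 they lay at 3 of 7 genes (control 4), in groups 4 to 8 at 8 of 15 (control 15) and in groups 9 to 13 at 2 of 16 (control 12). The 2 posterior genes were Hoxc9 and Hoxc10, which shared an island of 7000 bp that reached from Hoxc10 toward Hoxc9. That island was weak, at 1.76-fold and percentile 10.9 of its list, and it did not pass an FDR of 1e-06. KD islands also lay at Hoxa3, Hoxa4, Hoxa5, Hoxb3, Hoxb4, Hoxb5, Hoxb6, Hoxc5, Hoxc6, Hoxd3 and Hoxd8. Of these, Hoxa3, Hoxb3 and Hoxd3 have long models, and the Hoxa5 window was covered to only 0.374%. With the window set to the coding span and 5 kb each side, Hoxa5, Hoxb3 and Hoxc9 had no KD island. Posterior genes with a control island and no KD island were Hoxa9, Hoxa10, Hoxa11, Hoxb9, Hoxc11, Hoxc13, Hoxd9, Hoxd10, Hoxd11 and Hoxd12. At Hoxd9 the control island of 6.07-fold had no KD counterpart, and at Hoxb9, where control islands covered 43.6% of the window, KD islands covered 0%. At Hoxc6 an island of 11400 bp was present in KD cells, at 2.64-fold where the control had 4.31-fold.

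By region, 10 of 34 control islands in the clusters overlapped a KD island (29.4%, Wilson 95% interval 16.8 to 46.2), against 46.2% of the whole list, and all 9 KD islands overlapped a control island. The control islands that overlapped a KD island were wider than the others, with medians of 5900 and 3400 bp, and held more reads, 120.5 and 55.5. The whole list showed the same order, with 4200 and 2600 bp and 92 and 47 reads. In the shared islands the median log2 ratio of KD to control reads per kb was -0.35, and over the list it was -0.31. The coverage of the clusters was 28.8% in control and 9.01% in KD cells, while that of the genome was 5.66% and 3.68%. The part of the shorter KD list in these values was not tested.

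H3K4me2 showed little difference between control and Pax6 KD cells. All 34 Hox genes with a control peak had a KD peak, where 2.63% of all genes with a control peak had none, and KD peaks lay at no other Hox gene (0.773% of all genes had a KD peak alone and 68.7% had a KD peak). Of the 77 control peaks 68 overlapped a KD peak (88.3%, Wilson 95% interval 79.3 to 93.7; list 82.5%), and the 9 others were at most 464 bp wide and 4.84-fold enriched. The domain over Hoxb9 and Hoxb8 was 12532 bp in KD cells and that over Hoxd10 8393 bp. The coverage of the window was larger in control cells at 30 of 38 genes and larger in KD cells at 4 (all genes 58.0% and 12.5%), with medians of 40.1% and 36.3%. The Hoxc6 window held 3 control peaks, of up to 6951 bp, and 5 KD peaks, of up to 3422 bp, which covered 63.2% and 55.1% of it. Within 2 kb of the start, Hoxc9 alone had a control peak and no KD peak (2.65% of all genes with a control peak), and 0 had a KD peak alone (0.449%).

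**Figure D5:**
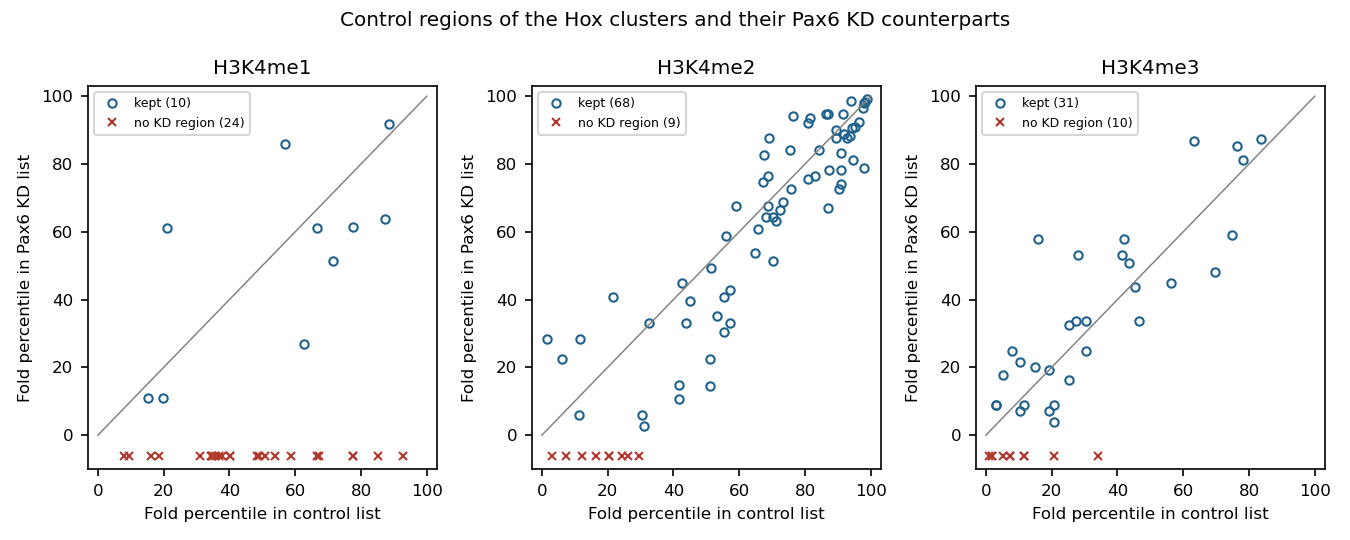
Enrichment percentile within its own list of each control region in the Hox clusters and of the overlapping Pax6 KD region, for H3K4me1, H3K4me2 and H3K4me3, with control regions that have no KD counterpart set apart. Regions without a counterpart number 24 of 34 for H3K4me1, 9 of 77 for H3K4me2 and 10 of 41 for H3K4me3.

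H3K4me3 peaks lay at the same 28 Hox genes in control and KD cells, while 2.90% of all genes with a control peak had no KD peak and 0.306% of all genes had a KD peak alone (51.8% of all genes had a KD peak). By region, 31 of 41 control peaks overlapped a KD peak (75.6%, Wilson 95% interval 60.7 to 86.2), below the 89.9% of the list. The 10 without a KD counterpart were weak, at percentile 0.824 to 34.0 of the list with a median of 7.24. The tallest of these was the peak over the start of Hoxc8 (12.1-fold, chr15:102820975-102821370), a gene of the thoracic spine and limb motor neurons. Within 2 kb of the start, Hoxc8 and Hoxa9, a regulator of blood stem cells, had a control peak and no KD peak (3.17% of all genes with a control peak), and Hoxb4, another blood stem cell gene, had a KD peak only (6.15-fold; 0.234% of all genes).

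The tall H3K4me3 peaks were present in both. Enrichment was 30.6-fold in control and 22.9-fold in KD cells at Hoxd9, which is percentile 83.6 and 87.3 of the respective lists. It was 27.9 and 20.7-fold near the outer start of the Hoxb6 model, 27.2 and 22.1-fold at the annotated start of the Hoxd3 model, and 22.0 and 22.6-fold at Hoxc9. The rank was lower in KD cells at Hoxb9 (24.5 and 12.8-fold, percentile 69.8 and 48.3), at Hoxa5 (19.6 and 12.1-fold, percentile 56.3 and 45.0) and at Hoxd13 (26.4 and 15.01-fold, percentile 74.7 and 58.9). Over all shared Hox regions the median difference in percentile, KD less control, was 3.62 for H3K4me3 (list -1.92), -4.21 for H3K4me2 (list -1.85) and -7.22 for H3K4me1 (list -0.429). Here each control region was paired with the strongest KD region it overlapped, so that a KD region can recur. Paired from the KD side, the median of control less KD was -0.07 for H3K4me3 (list 2.91; 15 down, 14 up). It was 5.54 for H3K4me2 (list 3.53) and 16.3 for H3K4me1 (list 1.64).

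The clusters also carry microRNA genes of the miR-10 and miR-196 families, which are transcribed with the Hox genes and are known to repress some of them. The mature sequences (RefSeq) of the 5p arms are shown because their hairpins lie inside the Hox clusters, and capitals mark the seed (bases 2 to 8), which is shared within each family. miR-10a and miR-10b lie within the annotated Hoxb4 and Hoxd4 models (chr11:96178500-96178522 and chr2:74564131-74564153), miR-196a between Hoxb13 and Hoxb9 and between Hoxc10 and Hoxc9 (chr11:96126501-96126522 and chr15:102803796-102803817), and miR-196b within the annotated Hoxa9 model (chr6:52180128-52180149).
mmu-miR-10a-5p: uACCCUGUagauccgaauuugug
mmu-miR-10b-5p: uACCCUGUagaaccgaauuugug
mmu-miR-196a-5p: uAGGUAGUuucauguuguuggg
mmu-miR-196b-5p: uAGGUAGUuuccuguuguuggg

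The microRNA genes differed in their distance from the H3K4me2 peaks. Mir196b lay inside a control H3K4me2 peak (chr6:52179828-52183917, 12.3-fold) and inside a KD H3K4me2 peak, and the nearest lens peak was 7.93 kb away. Mir196a-1 had a control H3K4me2 peak 2.99 kb upstream at 21.8-fold and a KD peak at 21.4-fold, with the nearest lens peak 6.48 kb away. Mir10a had a control H3K4me2 domain of 7144 bp 0.601 kb upstream. Mir10b was nearer to a lens peak (1.04 kb) than to a control αTN4 peak (9.43 kb). Mir196a-2 lay inside the KD H3K4me1 island between Hoxc10 and Hoxc9, 1.17 kb from the nearest control island.

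Lists of related genes are given beside the shares of all protein-coding genes. The 9 cofactor genes of the Pbx, Meis and Pknox families, whose proteins bind DNA with Hox proteins, had H3K4me2 peaks at 9 of 9 in control, KD and lens libraries (all genes 69.8%, 68.7% and 72.9%), and H3K4me3 peaks at 7 of 9 in control and KD cells (53.0% and 51.8%). Their H3K4me1 islands lay at 8 genes in control and 6 in KD cells (52.7% and 31.0%). Of the Trithorax and Polycomb genes, 22 of 22 had H3K4me2, H3K4me3 and Pol2 regions in control cells (69.8%, 53.0% and 53.5%). The 6 ParaHox genes of the Cdx, Gsx and Pdx families are the evolutionary sisters of the Hox clusters. They had control H3K4me2 peaks at 3 (all genes 69.8%), H3K4me3 at 1 (Gsx1, 53.0%) and Pol2 at 0 (53.5%). Their H3K4me1 islands lay at 3 in control (52.7%) and 0 in KD cells (31.0%). Lens H3K4me2 peaks lay at 5 of the 6 (83.3%), above the 72.9% of all genes. Among 9 genes that flank the clusters, 8 had control H3K4me2 peaks (69.8%) and all 9 lens peaks (72.9%). Evx1, the homeobox gene next to Hoxa13, had no αTN4 region, whereas Evx2, next to Hoxd13, had H3K4me1, H3K4me2 and H3K4me3 in control cells. No Pax6 peak lay at any gene of these lists.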

How the data were processed

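Lists of enriched regions of 9 ChIP-seq libraries were used. Per the paper's methods, reads were aligned to mm9 with Bowtie, and the authors called peaks with MACS2 (Pax6, Pol2, H3K4me2, H3K4me3) and islands with SICER (H3K4me1). The deposited MACS2 files give the fold enrichment and the −log10 p and q values of each peak. The deposited SICER files give the read counts of ChIP and input, the p-value, the fold (a ratio) and the FDR of each island. Tool versions are not given in the sources used here. RNA-seq and input samples were not analysed here.

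Regions were joined to 22254 protein-coding genes (GENCODE mouse, mm9) by at least 1 bp of overlap with the gene body and 5 kb each side, or with 2 kb around a start. Percentiles rank fold enrichment within a list. A percent of a cluster or window covered is the union of regions over its length. Shares carry Wilson 95% intervals. With 1 library per condition no test across genes was made. Named genes are the 38 members, with the tallest, widest and discordant regions of each mark. The members and gene lists were chosen with earlier results of these data known. Overlap counting was tested on simulated data. Scripts used pandas 2.3.3 and NumPy 2.4.6 under Python 3.11.15, with SciPy 1.17.1 for intervals and matplotlib 3.10.9 for plots. Alternatives changed the window, the overlap and the q or FDR threshold.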

Additional observations from a re-analysis of the deposited data

How the results depend on the processing

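Of 83 alternatives to counts and shares 73 stayed within 1.5 times or within the counting interval, as did 35 of 36 coverage values. The Hox genes within 2 kb of a start were 18 for Pol2 (28 in the wider window) and 20 for control H3K4me1 (31). Those with KD H3K4me1 were 8 within 2 kb of a start and 8 with the gene body alone (13). Genes with a control region and no KD region within 2 kb of a start were 1 for H3K4me2 (0) and 2 for H3K4me3 (0). KD H3K4me3 without control H3K4me3 lay at 1 gene within 2 kb of a start and at 1 with coding bounds (0). Control H3K4me2 without a lens peak lay at 10 genes within 2 kb of a start, and at 5 when −log10 q was at least 5 in both lists (3). The part of the Hoxc cluster under KD H3K4me1 was 9.13% at an FDR of 1e-06 (14.7%). No paired analysis was possible because each condition has 1 library and no replicate number. Depth is unknown for the MACS2 lists, so a missing region can mean a signal under the threshold. With 1 library per condition, the spread between replicates is unknown, and differences between lists cannot be told apart from differences between libraries.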
